A study of Mus musculus with 8 samples.

Results

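The laminin, integrin and basement membrane genes of the mouse retina were examined in poly(A) RNA of whole retinas. Members were the genes of the deposited table whose symbol named a laminin chain (Lama, Lamb or Lamc with a number) or an integrin subunit (Itga or Itgb with a suffix), together with Nid1, Nid2, Hspg2 and Agrn. This rule took 42 of 17500 genes. They comprised 11 laminin chains, 2 nidogens, 2 heparan sulfate proteoglycans, 25 integrin subunits and 2 genes, Itgb3bp and Itgbl1, that match the name pattern without encoding integrin subunits.

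Retinas of 4 Rbfox2 KD mice (M893, M901, M902 and M909) were compared with those of 4 control mice (M833, M894, M896 and M898), 1 library per mouse, to ask which genes differ when the RNA-binding protein Rbfox2 is reduced in the adult. All mice were 6 months old and of the C57BL/6J background, and the sources differ on the tamoxifen. The labels give it over 4 months for the samples of both groups, whereas the study's methods describe a short course, with the retinas of the Rbfox2 KD mice taken 4 months after it. The Rbfox2 KD animals were Rbfox2 fl/fl mice that carried a tamoxifen-inducible Cre transgene, and are called Rbfox2-/- in the study. The controls were age-matched Rbfox2 fl/+ mice, so both groups carried at least 1 floxed allele. The Cre driver is not restricted to one retinal cell type. Rbfox2 itself had 144, 149.8, 157 and 148 CPM (counts relative to the library size, which was scaled by the TMM method) in the controls and 53.9, 58.9, 53.6 and 59.4 CPM in M893, M901, M902 and M909, which is 37.7% of the control mean. The total counts on genes ranged from 160630226 to 211283591 per mouse, so that 3 counts in a library correspond to 0.0142 to 0.0187 CPM.

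M901 and M902 stood apart from the other 6 libraries on the first principal component, which held 40.5% of the variance, and M909 stood apart on the second, which held 19.2%. Xist, a transcript of the inactive X chromosome, was at 1440 and 1739 CPM in M901 and M902 and at 1.71 to 2.22 CPM in the other 6 mice. No control had the high level. Sex, which the labels used here do not give, therefore cannot be told apart from other differences of M901 and M902. Gnat1, the rod transducin gene that marks retina, was at 13082 to 14752 CPM in the controls. It was at 15116 to 16715 CPM in the Rbfox2 KD mice, without overlap (log2 fold change 0.19, edgeR, adjusted p = 0.236). Because whole retinas were measured, fewer cells of a type and less RNA per cell cannot be told apart in any result that follows.

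Laminins are secreted trimers of an alpha, a beta and a gamma chain. They assemble into sheets on cell surfaces, nidogens bridge the laminin sheet to type IV collagen, and the heparan sulfate proteoglycans perlecan (Hspg2) and agrin (Agrn) attach to the sheet. Cells hold on to these sheets through integrins, which are pairs of an alpha and a beta subunit, and through dystroglycan. In the retina, basement membranes form the inner limiting membrane on which the end feet of Muller glia rest, surround the vessels, and form Bruch's membrane beneath the pigment epithelium, while laminins with the beta 2 and gamma 3 chains also occur in the matrix around photoreceptors and at their synapses.

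Rbfox proteins bind RNA at UGCAUG, written TGCATG in a DNA sequence, and the transcripts of the members were therefore searched for this hexamer on the transcribed strand only. For each gene the coding transcript with the longest coding sequence in GENCODE M21 (GRCm38) was used. Introns, where the paper also places Rbfox binding, were not searched. The hexamer was present in 31 of the 42 members (73.8%) and in 8248 of 15397 coding genes of the table (53.6%). The members' transcripts were longer, with a median of 5.40 kb against 2.93 kb, and per length the density was alike, at 0.284 hexamers per kb in the members and 0.283 per kb in all coding genes. A hexamer lay in the 3′ UTR of 11 members (26.2%), against 31.4% of all coding genes. Of the 6 members that passed an unadjusted p of 0.05, Itga3 and Itga7 held no such hexamer in the transcript used, Itga10, Lama2 and Lama5 held 1 each, and Lamc3 held 3. These matches are given below, 5′ to 3′ on the transcript, with the hexamer in capitals and 10 bases on either side. The 6 members were picked by their values in these data, and whether Rbfox2 binds at these sites was not tested.
Lamc3, coding sequence, chr2:31918475-31918480, plus strand: ctgtgagcggTGCATGccaggtttct
Lamc3, 3′ UTR, chr2:31945673-31945678, plus strand: accacctgtgTGCATGcacacatatg
Lamc3, 3′ UTR, chr2:31945889-31945894, plus strand: aagtcccatgTGCATGgtcacagagc
Lama5, coding sequence, chr2:180199003-180199008, minus strand: gtctggccagTGCATGtgccgcaccg
Lama2, coding sequence across an exon junction, minus strand: cccaccatggTGCATGgcccttgtgt
Itga10, coding sequence, chr3:96649604-96649609, plus strand: gagaaccctgTGCATGagtggtccct

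The level of each gene per length in control retinas was taken from the deposited FPKM values (counts divided by library size and gene length), given here as the mean ± SD of 4 mice. Agrn, the heparan sulfate proteoglycan that clusters acetylcholine receptors at the neuromuscular junction, had the highest level of all members, 20.1 ± 2.19 FPKM. It was followed by 3 integrin subunits, Itgb5 at 16.5 ± 1.47, Itgav at 12.3 ± 0.683 and Itgb1 at 11.8 ± 1.15 FPKM. The alpha V subunit pairs with the beta 5 subunit into a vitronectin receptor that pigment epithelium uses to take up shed outer segments. Agrn and Itgb5 did not overlap with the next gene in this order, whereas the ranges of Itgav and Itgb1 overlapped. Among the laminins the highest chains were Lamb2 at 6.74 ± 1.10, Lamc1 at 5.63 ± 0.216, Lamb1 at 4.44 ± 1.002 and Lama5 at 3.47 ± 0.493 FPKM, followed by Lama1 at 1.37 ± 0.120 and Lamc3 at 1.15 ± 0.136 FPKM. The chains Lama2, Lama3 and Lama4 lay between 0.276 and 0.454 FPKM, and Lamb3, a chain of epithelial laminin, was at 0.0976 FPKM. Among the integrin alpha subunits that bind laminin, Itga3 was at 6.56 ± 0.460, Itga7 at 2.72 ± 0.360 and Itga6 at 1.11 ± 0.165 FPKM. Leukocyte subunits were low, from 0.0676 FPKM for Itgax to 0.710 FPKM for Itgam. With lengths from the union of GENCODE exons in place of the authors' lengths, 9 of the 10 highest members were again among the 10 highest.

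**Figure D1:**
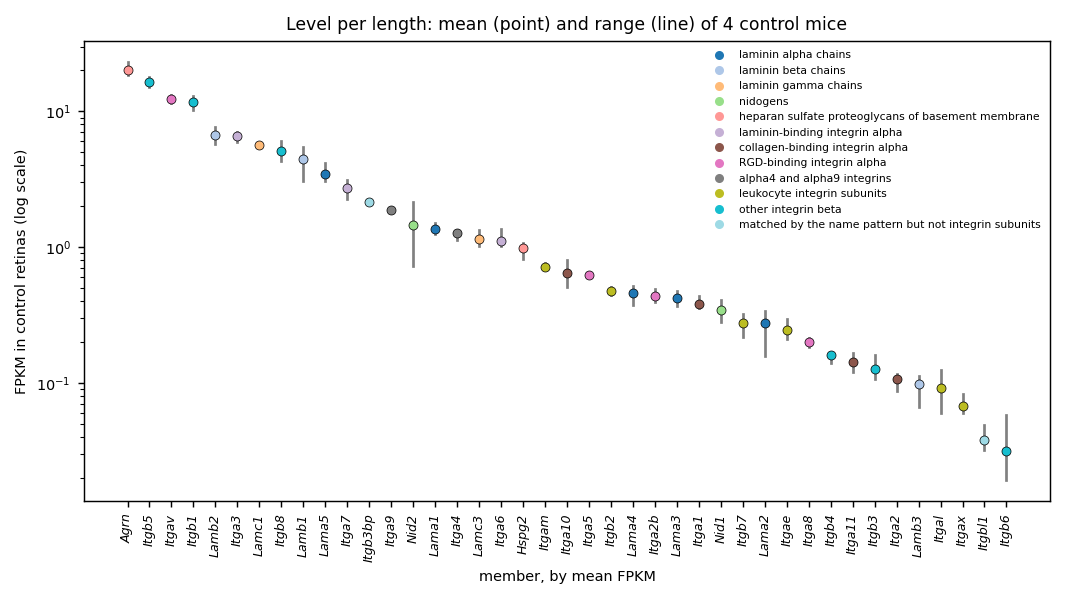
FPKM of 41 members in control retinas on a log axis, in falling order of the mean; points are the mean and lines the range of 4 control mice, and colours give the role group. Agrn, Itgb5, Itgav and Itgb1 lie above 10 FPKM, and neighbouring genes further down mostly overlap.

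All 42 members passed the filter on low counts and were tested. At an adjusted p of 0.05 in edgeR's quasi-likelihood test, 0 members and 11 of 16797 genes (0.0655%) were called. With edgeR's likelihood ratio test, 1 member (Lamc3) was called among 0.976% of genes, and with DESeq2 1 member (Lamc3 again) among 2.77% of genes. At an unadjusted p of 0.05, 5 members (11.9%) were lower in Rbfox2 KD retinas, Lamc3, Itga3, Itga7, Lama2 and Lama5, against 6.87% of all genes tested. In the other direction 1 member, Itga10, passed (2.38%), against 6.42% of all genes. The log2 fold change was negative in 34 of 42 members (81.0%) and in 49.3% of all genes, and its median was -0.15 for the members and 0.0016 for all genes. The groups did not overlap in 1 member (2.38%), Lamc3, which was lower in each Rbfox2 KD mouse, where 3.39% of genes had all Rbfox2 KD mice below all controls. No member had all Rbfox2 KD mice above all controls, which 3.64% of genes did.

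**Figure D2:**
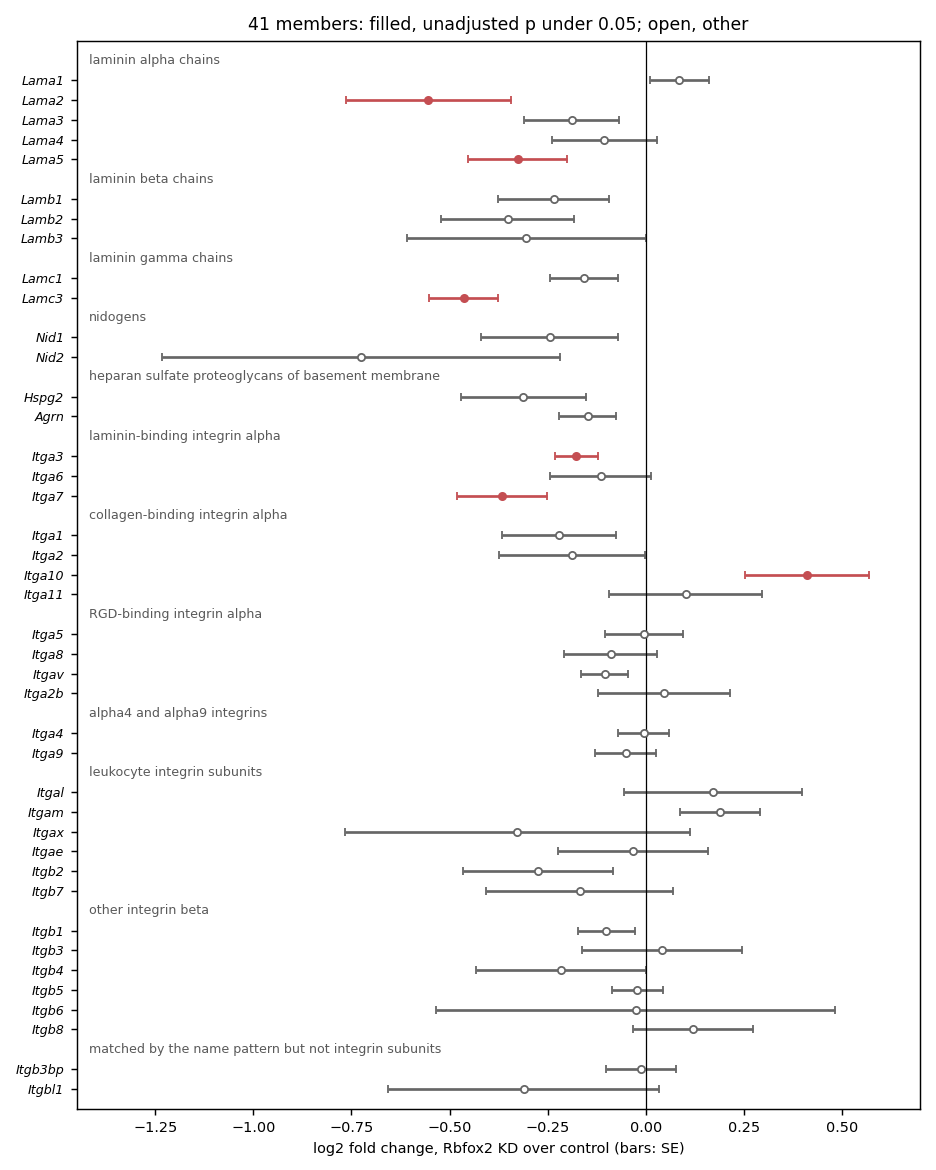
log2 fold change of 41 members in Rbfox2 KD against control retinas (x axis) with its standard error (bars), by role group; filled points passed an unadjusted p of 0.05 and open points did not. Of the 41 points, 33 lie left of 0, and Itga10 is the filled point on the right.

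Of the 11 laminin chains, 3 passed an unadjusted p of 0.05, all lower in Rbfox2 KD retinas, where 6.87% of all genes tested were lower, and 10 had a negative log2 fold change, as had 49.3% of all genes. Without M901 and M902, 1 of 11 passed, where 2.46% of all genes did, and 9 were negative, where 52% of all genes were. The gamma 3 chain Lamc3, on chromosome 2 at 31887291 to 31946539 (GENCODE M21, plus strand), had 6.43, 7.76, 7.04 and 5.97 CPM in the controls, given in the order M833, M894, M896, M898 here and in all that follows. It had 4.73, 5.02, 4.86 and 5.11 CPM in the Rbfox2 KD mice, in the order M893, M901, M902, M909. Each Rbfox2 KD mouse was thus below each control, and the Rbfox2 KD mice lay close to one another (4.93 ± 0.170 CPM, SD, n = 4, against 6.80 ± 0.776 CPM). The log2 fold change was -0.46 with a standard error of 0.088 (edgeR, adjusted p = 0.101). It was -0.47 without M901 and M902, still at an unadjusted p under 0.05 (adjusted p = 0.538), and between -0.52 and -0.39 when any 1 mouse was left out. An annotated gene on the opposite strand, Gm13441, shares 6.27% of the exon bases of Lamc3, and the strand setting of the counting is not given in the sources used here.

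The alpha 2 chain Lama2, which is the main alpha chain of muscle and is also made by perivascular cells, had 1.54, 2.83, 3.03 and 3.21 CPM in the controls. It had 1.59, 1.66, 1.94 and 2.04 CPM in the Rbfox2 KD mice, so that 3 controls lay above all Rbfox2 KD mice and M833 below them. For Lama2 the log2 fold change was -0.55 with a standard error of 0.210 (adjusted p = 0.318), and -0.75 without M833 (adjusted p = 0.0644). It no longer passed an unadjusted p of 0.05 when M894, M896, M898, M893 or M901 was left out, with values between -0.52 and -0.45, nor without both M901 and M902 (-0.55, adjusted p = 0.878) or with limma-voom (-0.49, adjusted p = 0.412). The alpha 5 chain Lama5, the widespread alpha chain of adult basement membranes, had 35.7, 46.9, 35.7 and 39.0 CPM in the controls against 32.5, 25.4, 29.2 and 38.3 CPM. M909 lay within the control range and M901 and M902 were the 2 lowest of the 8 libraries. The log2 fold change of Lama5 was -0.33 with a standard error of 0.126 (adjusted p = 0.322), and it was -0.15 without M901 and M902 (adjusted p = 0.932). Leaving out M894, M901 or M902 alone also left Lama5 above an unadjusted p of 0.05, with values between -0.29 and -0.23. Lama1, the alpha chain of early embryonic basement membranes and of the inner limiting membrane, was at 11.8 to 14.0 CPM in the controls and 12.9 to 14.9 CPM in the Rbfox2 KD mice, and is the 1 chain with a positive log2 fold change, 0.085.

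None of the beta chains passed an unadjusted p of 0.05. Lamb2, the beta chain of synaptic, renal and retinal laminins, had 33.2, 42.8, 32.1 and 42.5 CPM in the controls. It had 35.1 and 36.4 CPM in M893 and M909, within the control range, and 25.2 and 21.5 CPM in M901 and M902, below it. This gave a log2 fold change of -0.35 with a standard error of 0.170 (adjusted p = 0.404), and -0.080 without these 2 mice. Lamc1, the gamma chain of most laminins, was also lowest in M901 and M902. Its levels were 44.7, 44.0, 40.8 and 41.1 CPM in the controls, 41.1 and 44.2 CPM in M893 and M909, and 33.4 and 34.3 CPM in M901 and M902. For Lamc1 the log2 fold change was -0.16 with a standard error of 0.087 (adjusted p = 0.463), and -0.0027 without M901 and M902. Lamb1 had 18.1 to 31.0 CPM in the controls and 19.5 to 24.6 CPM in the Rbfox2 KD mice. The sum over the 11 chains was 162 to 195 CPM in the controls, 132 CPM in both M901 and M902, and 161 and 171 CPM in M893 and M909.

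Nidogens and proteoglycans, the linkers of the laminin sheet, gave no member at an unadjusted p of 0.05. Nid2, nidogen 2, had the largest log2 fold change of all members and also one of the widest spreads. Its controls fell into a low and a high pair, 4.06 and 3.52 CPM in M833 and M896 and 10.1 and 10.2 CPM in M894 and M898. The Rbfox2 KD mice did the same, with 6.40 and 6.68 CPM in M893 and M909 and 1.72 and 2.03 CPM in M901 and M902. The difference (log2 fold change -0.73 with a standard error of 0.507, adjusted p = 0.569) did not exceed the spread between mice, and it was -0.095 without M901 and M902. Nid1 was at 1.67 to 2.44 CPM in the controls and 1.504 to 2.17 CPM in the Rbfox2 KD mice. Agrn had 139, 169, 146 and 135 CPM in the controls and 139, 119.9, 138 and 135 CPM in M893, M901, M902 and M909, with a log2 fold change of -0.15 and a standard error of 0.073 (adjusted p = 0.414), and of -0.074 without M894, the highest control (adjusted p = 0.643). Hspg2, perlecan, had 14.0, 15.0, 11.5 and 15.0 CPM in the controls and 10.7, 10.1, 8.56 and 15.2 CPM in the Rbfox2 KD mice, where M909 alone was above all controls. Its log2 fold change was -0.31 with a standard error of 0.159 (adjusted p = 0.429), and -0.50 without M909 (adjusted p = 0.102). It was -0.21 without M902 (adjusted p = 0.703) and -0.099 without both M901 and M902 (adjusted p = 0.982).

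**Figure D3:**
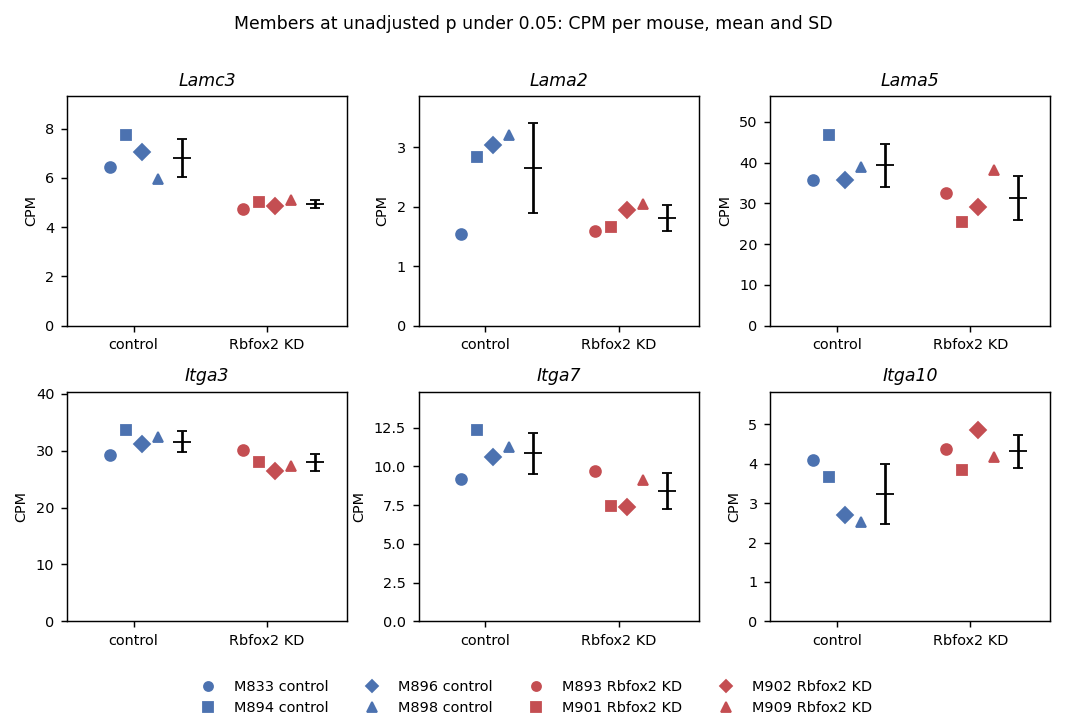
CPM per mouse of the 6 members at an unadjusted p under 0.05, with the mean and SD of each group in black; circles, squares, diamonds and triangles distinguish the mice of a group. The groups are separate in Lamc3 and overlap in the other 5.

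Among the integrin alpha subunits that bind laminin, 2 of 3 were lower at an unadjusted p of 0.05, against 6.87% of all genes tested. Itga3, on chromosome 11 at 95044474 to 95076801 (minus strand), pairs with beta 1 to bind laminins with the alpha 5 chain. It had 29.3, 33.6, 31.3 and 32.4 CPM in the controls and 30.1, 28.0, 26.5 and 27.3 CPM in the Rbfox2 KD mice. M893 was above the lowest control and the other 3 Rbfox2 KD mice were below all controls. Its log2 fold change was -0.18 with a standard error of 0.055 (adjusted p = 0.255). Itga7, the laminin receptor alpha subunit of muscle and vascular wall cells, had 9.19, 12.3, 10.6 and 11.3 CPM in the controls. The Rbfox2 KD mice had 9.72, 7.43, 7.38 and 9.11 CPM, so that M893 alone reached the control range. The log2 fold change of Itga7 was -0.37 with a standard error of 0.114 (adjusted p = 0.254). Without M901 and M902 neither passed an unadjusted p of 0.05, with log2 fold changes of -0.14 for Itga3 (adjusted p = 0.873) and -0.21 for Itga7 (adjusted p = 0.898). Itga6, the remaining laminin receptor, was at 5.92 to 7.92 CPM in the controls and 4.96 to 7.18 CPM in the Rbfox2 KD mice.

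The collagen-binding alpha subunits held the 1 member that was higher in Rbfox2 KD retinas at an unadjusted p of 0.05. Itga10, a collagen receptor subunit best known from cartilage, lies on chromosome 3 at 96645584 to 96664519 (plus strand). It had 4.09, 3.68, 2.70 and 2.51 CPM in the controls and 4.39, 3.85, 4.85 and 4.18 CPM in the Rbfox2 KD mice, and M833 was above M901. Its log2 fold change was 0.41 with a standard error of 0.158 (adjusted p = 0.322), and it no longer passed an unadjusted p of 0.05 when M896, M898, M893 or M902 was left out, with values down to 0.31, nor without both M901 and M902 (0.40, adjusted p = 0.873). The annotated gene Gm42957 on the same strand shares 33.5% of the exon bases of Itga10, so its counts may hold reads of both. Itga1 (2.12 to 2.59 CPM in the controls, 1.48 to 2.25 CPM in the Rbfox2 KD mice), Itga2 (0.362 to 0.4997 and 0.313 to 0.425 CPM) and Itga11 (0.582 to 0.831 and 0.589 to 0.920 CPM) overlapped between the groups.

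None of the 4 alpha subunits that bind the RGD motif, a short peptide of fibronectin and vitronectin, passed an unadjusted p of 0.05. Itgav had 89.7, 91.7, 81.0 and 83.0 CPM in the controls against 76.7, 84.5, 73.7 and 86.2 CPM in the Rbfox2 KD mice, and its log2 fold change was -0.10 with a standard error of 0.060 (adjusted p = 0.48). Itga5 was at 2.59 to 2.83 and 2.32 to 2.88 CPM, Itga8 at 1.04 to 1.23 and 0.975 to 1.13 CPM, and Itga2b, the platelet subunit, at 1.38 to 1.67 and 1.18 to 1.91 CPM in control and Rbfox2 KD mice. The alpha 4 and alpha 9 subunits did not separate either. Itga9 had 13.2, 13.0, 12.6 and 13.5 CPM in the controls and 14.0, 10.9, 11.98 and 13.6 CPM in the Rbfox2 KD mice (log2 fold change -0.051, standard error 0.078, adjusted p = 0.819). Itga4 was at 11.0 to 13.4 CPM in the controls and 12.1 to 12.8 CPM in the Rbfox2 KD mice.

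Leukocyte subunits, which in retina belong mainly to microglia and blood cells, gave 0 of 6 members at an unadjusted p of 0.05. Itgam, the alpha subunit of the complement receptor of microglia, had 3.26, 3.19, 3.53 and 3.24 CPM in the controls and 3.43, 3.69, 3.47 and 4.48 CPM in the Rbfox2 KD mice, where M909 was the highest of 8. Its log2 fold change was 0.19 with a standard error of 0.103 (adjusted p = 0.455), and it was 0.0955 without M909 (adjusted p = 0.584). Of its exon bases, 68.7% are shared with the annotated gene Gm49368. Itgb2, the beta subunit that pairs with Itgam, was at 1.25 to 1.48 CPM in the controls and 0.826 to 1.55 CPM in the Rbfox2 KD mice. Itgal, Itgax, Itgae and Itgb7 were at 0.0945 to 1.12 CPM and overlapped between the groups.

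The other beta subunits, of which Itgb1 serves all the laminin and collagen receptors named above, gave 0 of 6 members. Itgb1 had 43.4, 49.9, 49.3 and 53.5 CPM in the controls and 49.4, 45.0, 41.0 and 47.4 CPM in the Rbfox2 KD mice (log2 fold change -0.10, standard error 0.073, adjusted p = 0.582). Itgb5 had 49.7, 56.3, 50.1 and 57.8 CPM against 56.1, 53.7, 48.1 and 52.9 CPM (log2 fold change -0.021, standard error 0.064, adjusted p = 0.92). Itgb8, which pairs with alpha V to release active TGF-beta, was at 13.2 to 18.4 CPM in the controls, 14.6 to 15.4 CPM in M893, M901 and M902, and 23.3 CPM in M909. Itgb4, the hemidesmosome subunit, was at 0.846 to 0.988 CPM in the controls and 0.607 to 1.22 CPM in the Rbfox2 KD mice, and Itgb3 (0.542 to 0.918 CPM) and Itgb6 (0.0519 to 0.271 CPM) were low in all mice. Of the genes that only share the name pattern, Itgb3bp, a centromere protein, had 5.79, 5.61, 5.92 and 5.88 CPM in the controls and 5.19, 5.98, 5.17 and 6.66 CPM in the Rbfox2 KD mice (log2 fold change -0.012, standard error 0.090, adjusted p = 0.969). Itgbl1 lay between 0.0417 and 0.113 CPM in all mice. Over all 25 integrin subunits the median log2 fold change was -0.051, with 18 negative, and without M901 and M902 it was 0.024, with 9 negative. Of all genes tested, 49.3% were negative, and 52% without M901 and M902.

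The members did not shift alike in the 4 Rbfox2 KD mice. Relative to the control mean on the log2(CPM + 0.5) scale, the median over the 42 members lay at -0.17 in M901, -0.23 in M902, -0.055 in M893 and 0.051 in M909. M901 and M902 were the 2 lowest of the 8 libraries in 15 of 42 members (35.7%), against 9.35% of all genes tested, and these 15 included Lama5, Lamb2, Lamc1, Nid1, Nid2, Hspg2, Itga6 and Itga7. Without both mice, 23 of 42 members (54.8%) had a negative log2 fold change, where 52% of all genes did, and the members' median was -0.023. In the same comparison 1 member, Lamc3, passed an unadjusted p of 0.05 as lower (2.38%), as did 2.46% of all genes tested. Leaving out M909 alone had the opposite effect on the count, with 14 members lower at an unadjusted p of 0.05 (33.3%) against 9.2% of all genes, among them Lamb2, Lamc1, Hspg2, Itgav and Itgb4. The Rbfox2 KD mice of that comparison were M893, M901 and M902, and the part of M901 and M902 in this count was not tested.

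**Figure D4:**
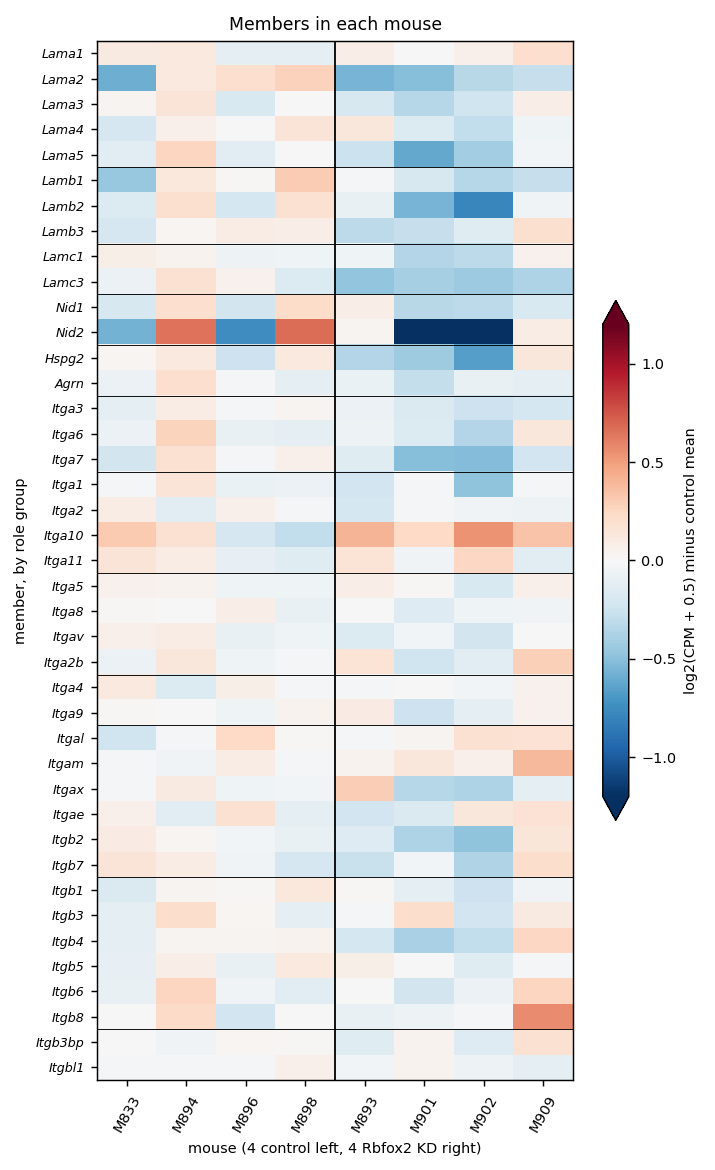
Each of 41 members (row, by role group) in each mouse (column) as log2(CPM + 0.5) minus the control mean; blue is lower, red is higher, and arrows on the colour bar mark values beyond the scale. The columns of M901 and M902 are blue in most rows and the column of M909 is not, while Lamc3 is blue in all 4 Rbfox2 KD columns.

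Levels of marker genes for other cell types differed between the same mice, and their part in the members' differences was not tested. The summed level of 9 pigment and ciliary epithelium genes ranged from 73.7 to 440.1 CPM in the controls, with 248 and 440.1 CPM in M894 and M898, and from 49.7 to 150.4 CPM in the Rbfox2 KD mice, with 131 and 150.4 CPM in M893 and M909. These are the same 4 mice in which Nid2 was highest. Of that list 4 genes were lower in Rbfox2 KD retinas at an unadjusted p of 0.05, against 6.87% of all genes tested. Dct, a melanin synthesis gene and the most abundant of them, had 9.58, 101, 19.6 and 224 CPM in the controls and 45.2, 4.78, 6.44 and 18.0 CPM in the Rbfox2 KD mice, while Ttr, the next, was at 30.0 to 57.5 and 31.5 to 90.6 CPM. Best2, a ciliary epithelium gene, was at 0.150 and 0.208 CPM in M901 and M902 and at 4.14 to 16.0 CPM in the other 6 mice. The 5 fibroblast genes summed to 14.1 to 23.4 CPM in the controls, 6.12 and 7.48 CPM in M901 and M902, and 17.5 and 18.7 CPM in M893 and M909. Of these 1 of 5 passed as lower, and Col1a2, the most abundant, was at 1.88 and 2.95 CPM in M901 and M902 and at 8.68 to 13.3 CPM in the other 6 mice.

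Pericyte and smooth muscle genes, which mark the cells that wrap vessels, were lower in 5 of 9 at an unadjusted p of 0.05 and summed to 58.2 to 83.7 CPM in the controls and 44.4 to 62.1 CPM in the Rbfox2 KD mice. Pdgfrb, the most abundant, was at 19.4 to 22.6 CPM in the controls and 18.5 to 24.1 CPM in the Rbfox2 KD mice, and Rgs5, the next, passed with a log2 fold change of -0.34. Among the others that passed, Myh11, Acta2 and Tagln were at 13.4, 7.58 and 3.23 CPM in the control M898. In the other controls they reached at most 4.94, 3.21 and 1.94 CPM. Endothelial genes passed as lower in 3 of 9 and summed to 237 to 261 CPM in the controls and 217 to 274 CPM in the Rbfox2 KD mice. Most of this sum came from 1 gene, and the median log2 fold change of the 9 was -0.24. Microglia genes passed in 1 of 9, at sums of 69.6 to 76.4 and 60.8 to 76.5 CPM. Surface epithelium genes were higher in 5 of 7 tested and summed to 4.56 to 7.09 CPM in the controls, 6.89 to 11.7 CPM in M893, M901 and M902, and 86.3 CPM in M909, with Krt15 and Krt5 at 39.3 and 24.7 CPM there. Muller glia genes passed as lower in 2 of 7 (sums of 5365 to 5843 CPM in the controls and 4911 to 5303 CPM in the Rbfox2 KD mice), with Glul at a log2 fold change of -0.17. Most of this sum came from Glul, and Dkk3 was the other gene that passed. The median log2 fold change of the 7 was -0.0028, with 4 negative. Astrocyte genes gave 0 of 3 (18.7 to 22.5 and 18.1 to 23.9 CPM), lens genes 1 of 3 tested as lower (1.21 to 2.24 and 0.892 to 1.28 CPM), and blood leukocyte genes 0 of 2 tested (0.0903 to 0.294 and 0.107 to 0.615 CPM). Retinal neuron genes passed as higher in 4 of 13. Over all genes tested these shares were 6.87% lower and 6.42% higher. Without M901 and M902, the genes that passed as lower were 1 of 9 for pigment and ciliary epithelium, 1 of 9 for pericytes and smooth muscle, 1 of 7 for Muller glia and 0 for fibroblasts, endothelium and microglia. Of all genes tested, 2.46% passed as lower in that comparison. Mip, a lens gene, was at 0 counts in M894, which allows up to 0.0172 CPM.

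Other components of basement membranes were lower in 4 of 23 genes at an unadjusted p of 0.05 and higher in 0, with 20 negative and a median log2 fold change of -0.13, where 6.87% of all genes tested were lower and 6.42% higher. Of all genes tested, 49.3% were negative. Without M901 and M902, 1 of 23 was lower and 12 were negative, where 2.46% and 52% of all genes were. The median was then -0.0095. Smoc1, a calcium-binding matrix protein, was separate between the groups, at 34.9, 33.8, 35.7 and 36.4 CPM in the controls and 32.2, 32.4, 32.4 and 32.5 CPM in the Rbfox2 KD mice (log2 fold change -0.12, adjusted p = 0.243). Sparc, the most abundant of them, was at 151 to 193 CPM and 142 to 170.3 CPM (log2 fold change -0.15, adjusted p = 0.436), with a log2 fold change of -0.0585 without M901 and M902. The following 3 genes were chosen after their values were seen. Fbln1, fibulin 1, had 51.1, 88.2, 51.7 and 112.7 CPM in the controls and 83.0 and 71.7 CPM in M893 and M909, but 2.52 and 2.09 CPM in M901 and M902. Col18a1, the source of endostatin, was at 79.8 to 137 CPM in the 6 other mice and at 26.5 and 31.9 CPM in M901 and M902. Col4a6, a type IV collagen chain, was at 6.58 to 14.3 CPM in those 6 mice and at 3.12 and 4.05 CPM in M901 and M902.

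**Figure D5:**
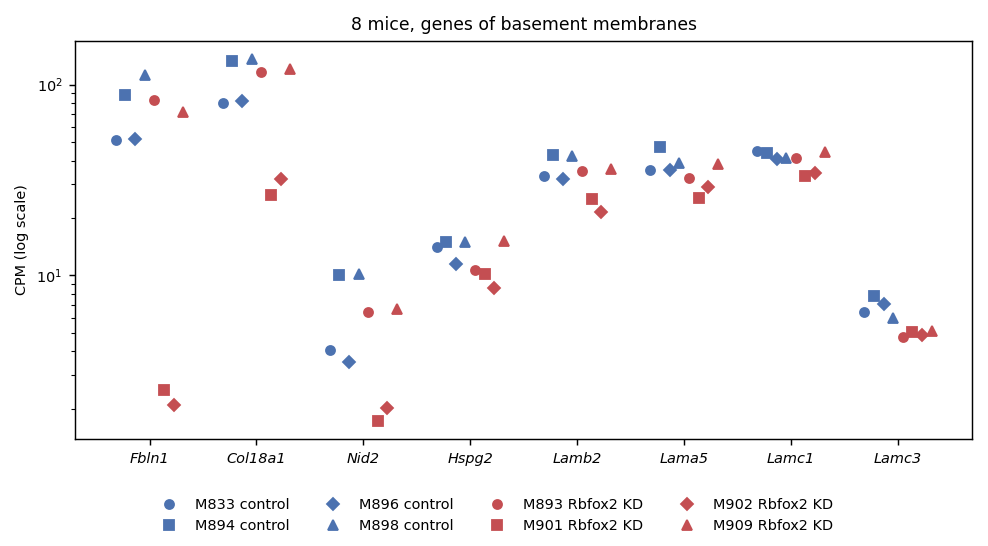
CPM on a log axis of 8 genes of basement membranes in each mouse, controls in blue and Rbfox2 KD mice in red, with the symbols of the legend. M901 and M902 (red squares and diamonds) lie far below the other 6 mice in Fbln1 and Col18a1 and below them in Nid2, Hspg2, Lamb2, Lama5 and Lamc1, whereas in Lamc3 all 4 Rbfox2 KD mice lie together below the controls.

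Dystroglycan, the second laminin and agrin receptor of the retina, and the proteins that bind or glycosylate it showed 1 lower and 2 higher genes of 23 tested at an unadjusted p of 0.05, with a median log2 fold change of 0.012. Of all genes tested, 6.87% were lower and 6.42% higher. When M901 and M902 were left out, 1 was lower and 1 higher, where 421 and 606 of 17088 genes tested were. Utrn, utrophin, which ties dystroglycan to actin, had 90.4, 92.1, 89.6 and 97.5 CPM in the controls and 75.0, 74.9, 68.1 and 81.3 CPM in the Rbfox2 KD mice, with no overlap (log2 fold change -0.30, standard error 0.053, adjusted p = 0.0837). It was -0.24 without M901 and M902 (adjusted p = 0.496). Egflam, pikachurin, the dystroglycan ligand at the photoreceptor synapse, was at 285 to 308 CPM in the controls and 315 to 335 CPM in the Rbfox2 KD mice (log2 fold change 0.13, adjusted p = 0.235), and was the most abundant gene of the list. Pomt1, an O-mannosyltransferase of dystroglycan, was at 20.9 to 24.1 and 24.5 to 26.4 CPM (log2 fold change 0.17, adjusted p = 0.268).

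The integrin adhesome list covered proteins that join integrins to actin and also signalling proteins such as Src and Ptk2. Of its 24 genes, 6 were lower at an unadjusted p of 0.05 and 0 higher, with a median log2 fold change of -0.018. The shares over all genes tested were 6.87% lower and 6.42% higher. In the comparison without M901 and M902, 3 of 24 were lower, where 2.46% of all genes were, and the median was -0.034. Lims2, a partner of integrin-linked kinase, had 1.69, 1.92, 2.49 and 1.71 CPM in the controls and 1.18, 1.22, 1.15 and 1.01 CPM in the Rbfox2 KD mice, without overlap (log2 fold change -0.77, standard error 0.150, adjusted p = 0.11). Tns3, tensin 3, was at 115 to 131 CPM and 95.5 to 112.1 CPM (log2 fold change -0.23, adjusted p = 0.178). Flna, filamin A, was at 117 to 133 CPM and 85.1 to 111.9 CPM (log2 fold change -0.30, adjusted p = 0.216, and -0.18 without M901 and M902). Tln2, talin 2, the most abundant, was at 333 to 361 and 324 to 369 CPM (log2 fold change -0.0097, adjusted p = 0.951). Of 10 other integrin ligands 1 passed in each direction, where 6.87% of all genes were lower and 6.42% higher. The median log2 fold change was 0.029. With both M901 and M902 left out, none was lower and 1 was higher, where 421 and 606 of 17088 genes tested were. Vtn, vitronectin, the most abundant ligand and one that alpha V beta 5 binds, had 817, 787, 746 and 783 CPM in the controls and 876, 880.4, 892 and 843 CPM in the Rbfox2 KD mice, without overlap (log2 fold change 0.16, standard error 0.040, adjusted p = 0.192). Fn1, fibronectin, was the gene that passed as lower (53.8 to 61.7 and 41.5 to 59.95 CPM, adjusted p = 0.355). No gene of these 4 lists passed an adjusted p of 0.05 in edgeR's quasi-likelihood test. Among the genes named from them, DESeq2 called Utrn, Lims2, Tns3, Flna, Egflam and Vtn, and the likelihood ratio test Utrn and Lims2. DESeq2 called 2.77% of all genes and the likelihood ratio test 0.976%. All the genes called here had been picked by an unadjusted p under 0.05 without overlap in these same data. Their calls are therefore not separate evidence.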

How the data were processed

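The authors sequenced poly(A) libraries (Nugen Universal Plus mRNA-seq) of whole retina RNA from 4 control and 4 Rbfox2 KD mice, aligned the paired reads to mm10 (STAR), and used HTSeq to count those that mapped to one place. The paper names both RefSeq and Ensembl annotations, and which of them gave the counts is not given in the sources used here. The submitters' processing notes name CASAVA 1.8.2. The deposited table holds raw counts and FPKM values, and the authors computed the FPKM from those counts with 1 length per gene. It also holds 16 further columns of values per mouse and the authors' fold changes, p-values and FDR, none of which were used.

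Counts were filtered with filterByExpr (16797 of 17500 genes kept), scaled by TMM and fitted in edgeR 4.0.16 (R 4.3.3), whose quasi-likelihood test compared the groups with no covariate. p-values were adjusted over all genes tested by the Benjamini-Hochberg method. Each mouse was 1 replicate, and every pair of libraries differed by more than sampling noise. With at least 160630226 counts per library, the number of mice limits precision more than counting does, and floors of 3 counts cover counting error only. Alternatives were DESeq2 1.42.0, the likelihood ratio test, limma-voom (limma 3.58.1), RLE and upper-quartile normalization, no filter, at least 10 counts in every library, each mouse left out, M901 and M902 left out, and 1 surrogate variable (sva 3.50.0). The procedure was tested on simulated data with changes larger than those of the members, so that test does not cover changes of their size. Summed levels of gene groups are given without a test.

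Members and gene lists were chosen with earlier results of these data known. Named with full values are members at an unadjusted p under 0.05, members whose groups do not overlap, the member of highest FPKM in each role group and the 3 largest changes, plus Hspg2 and Itgb1, which were chosen after their values were seen. In the other pathway lists these are up to 4 genes at p under 0.05 without overlap, and the most abundant gene. Marker lists covered endothelium, pericytes and smooth muscle, microglia, blood leukocytes, Muller glia, astrocytes, pigment and ciliary epithelium, fibroblasts, surface epithelium, lens and retinal neurons. Positions, lengths and transcript sequences came from GENCODE M21 (GRCm38, the assembly mm10 names), and all 42 members were found there by symbol. Values of 1 member, of 2 marker genes and the name of the Cre line are not reported here, and the plots leave that member out.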

Additional observations from a re-analysis of the deposited data

Results flagged for a closer look

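In 4 of 84 groups of 4 mice (42 members, 2 groups each), 1 mouse lay far from the other 3 of its group, where about 1 in 20 groups, or 4.2, would do so by chance. Itga6 was at 7.92 CPM in the control M894 and at 5.92 to 6.16 CPM in the other controls. Itgb4 was at 0.846 CPM in the control M833 and at 0.977 to 0.988 CPM in the others. Itga2 was at 0.313 CPM in the Rbfox2 KD mouse M893 and at 0.406 to 0.425 CPM in the others. Itgb8 was at 23.3 CPM in the Rbfox2 KD mouse M909 and at 14.6 to 15.4 CPM in the others.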

How the results depend on the processing

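With DESeq2 and with the likelihood ratio test 1 member, Lamc3, passed an adjusted p of 0.05 in place of 0, and 465 and 164 of all genes did in place of 11. Under all other alternatives the count stayed at 0. Without M901 and M902, the 5 lower members at an unadjusted p of 0.05 became 1, the 1 higher member became 0, the median log2 fold change went from -0.15 to -0.023, and the log2 ratio of the summed gamma chains from -0.20 to -0.058. With 1 surrogate variable, 1 member was lower and the median was -0.014. This variable was 0.59 and 0.58 in M901 and M902 and -0.40 to -0.030 in the other mice. It thus mainly set M901 and M902 apart, and is not independent of leaving these mice out. When each mouse was left out, between 3 and 14 members were lower and 0 or 1 higher, with the fewest lower without M894 or M901, 8 without M833 and the most without M909; no member was higher without M896, M898, M893 or M902. The cause was not tested. Fold changes turned sign for Nid2, Itgb1, Itga9, Itgb5, Itgb3bp, Col18a1 and Fbln1 with 1 surrogate variable (0.27, 0.020, 0.081, 0.064, 0.029, 0.31 and 0.22), and for Itga9, Itgb5, Itgb3bp, Col18a1 and Fbln1 without M901 and M902 (0.074, 0.024, 0.028, 0.14 and 0.024). With single mice left out they ranged from -0.10 to 0.012 for Itga9, -0.057 to 0.019 for Itgb5, -0.090 to 0.034 for Itgb3bp and -0.041 to 0.021 for Tln2. No paired analysis was possible because the groups share no replicate numbers. Counting depth limits only the lowest members, such as Itgb6 and Itgbl1.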
